A study of Homo sapiens with 3 samples.

Results

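In HCT116 cells carrying UHRF1 hairpin 5, transcripts at least 2-fold below the scrambled control far outnumbered those at least 2-fold above it. Among 11867 genes at a readable level, 228 were at least 2-fold lower and 30 were at least 2-fold higher. The lower genes included UHRF1 itself, the amino acid stress genes ASNS, DDIT3, CEBPG and TRIB3, the keratin KRT7, the AP-1 subunit FOSL1 and the cysteine protease inhibitor CSTA. The higher genes included the ligand BMP4, the mitochondrial chaperonin subunit HSPE1, the interferon-induced IFIT1 and IFITM1, and the cell cycle kinase CDK6. Each side of the comparison was 1 array, so every difference is a description of these 2 arrays, with no error, no test and no replicate check.

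The comparison is the array of hairpin 5 minus the array of the scrambled control, on the log2 scale, over probe sets assigned to a single gene. It used 2 of the 3 arrays of the study. HCT116 is an established human colorectal carcinoma line. The cells received, by lentivirus, either a scrambled short hairpin RNA or 1 of 2 hairpins directed at UHRF1, and all 3 cultures were kept in puromycin for 6 days before harvest. The study's title ties the design to the role of UHRF1, through its PHD finger, in the expression of genes in euchromatin. Hairpin 2 is given below only as context. It was set against the same control array, so anything particular to that array enters both differences. Effects of the hairpin, of the culture and of the array cannot be told apart.

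UHRF1 is a multidomain nuclear protein that reads both DNA and histone H3. Its SRA domain binds hemimethylated DNA behind the replication fork, and its tandem Tudor and PHD domains bind the H3 tail. Through its ubiquitin ligase activity on H3 it brings DNMT1 to newly replicated DNA, and it is therefore needed to maintain DNA methylation. It is abundant in cycling cells and in many carcinomas.

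Of 54613 probe sets on the array, 41091 named 1 gene, and they covered 19775 genes. Each gene was represented by its brightest probe set over the 2 arrays. A gene was kept where that mean reached a log2 level of 3.30, the 40th percentile, which left 11867 genes and set aside 7908. The median over all probe sets was 3.0 on the control array and 3.04 on the hairpin 5 array. The deposited values carry no detection calls, so levels close to those medians may be background and folds against them are uncertain. Of 12 markers of colorectal epithelium, 8 reached the minimum, among them EPCAM, CDH1, KRT8, KRT18 and KRT19, while KRT20, VIL1, CDH17 and LGR5 were below it on both arrays. The 12 summed to 75.1 on the control array and 75.8 with hairpin 5. Of the marker lists of other cell types, 2 of 12 leukocyte genes, 4 of 14 fibroblast and endothelial genes and 6 of 12 neuronal genes reached it. Their summed log2 levels were 35.6, 44.4 and 46.6 on the control array and 36.7, 46.2 and 49.1 with hairpin 5. All 6 neuronal genes at the minimum were above the control with hairpin 5 (43.2% of all genes were), by 0.006 to 0.78 with a median of 0.42. Their median level was 3.88, near the minimum. The fibroblast and endothelial genes had a median of 0.35 over 4. Without a level minimum the medians were 0.10 over 12 neuronal genes and 0.09 over 14 fibroblast and endothelial genes. The part of such cells in the results was not tested. PTPRC and CD3E of leukocytes, DCN, COL3A1 and CDH5 of fibroblasts and endothelium, and SNAP25 and STMN2 of neurons were below the minimum on both arrays. At the minimum were CD79A and HBB of leukocytes, and COL1A1 (5.82 and 5.75), CLDN5 (4.13 and 4.65), PDGFRB and PECAM1 of fibroblasts and endothelium. The neuronal genes there included GRIN1 (5.84 and 6.38) and TUBB3 (9.29 and 10.06). TUBB3 had the largest neuronal difference, was read by probe sets marked as cross-hybridising, and is counted again among the tubulins below.

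The transcript targeted by the hairpin was lower. UHRF1 was measured by 1 probe set, at 8.54 on the control array and 6.67 with hairpin 5, a difference of −1.88 or 3.68-fold. Both levels were well clear of the minimum. With hairpin 2 the same probe set read 6.20. UHRF2, the paralog of UHRF1, stood at 5.63 on the control array and 4.71 with hairpin 5 (−0.92), and at 5.56 with hairpin 2. The 2 paralogs are each read by 1 probe set, and cross-hybridisation between them was not tested. DNMT1, the maintenance methyltransferase that UHRF1 recruits, differed by −0.31, from 8.81 to 8.50. The de novo methyltransferases DNMT3A, at 4.0 and 3.89, and DNMT3B, at 6.36 and 6.15, differed by −0.11 and −0.21.

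Over the 11867 genes, the median difference was −0.05, and the range from the 5th to the 95th percentile ran from −0.76 to 0.50. Of all genes measured 56.5% were below 0 and 43.2% above it. These shares were 51.9% and 48.1% after cyclic loess, and 50.1% and 49.3% without a level minimum. The 228 lower genes are 1.92% of those measured and the 30 higher genes 0.253%. The imbalance held at other sizes, with 340 genes higher and 1152 lower at 1.5-fold, 7 and 27 at 3-fold, and 2 and 9 at 4-fold. It was present in all 5 equal bins of level. The dimmest bin held 2 higher and 14 lower genes, the middle bin 8 and 74, and the brightest 4 and 26. The median difference was 0.05 in the dimmest bin, −0.14 in the next to brightest and −0.09 in the brightest.

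**Figure D1:**
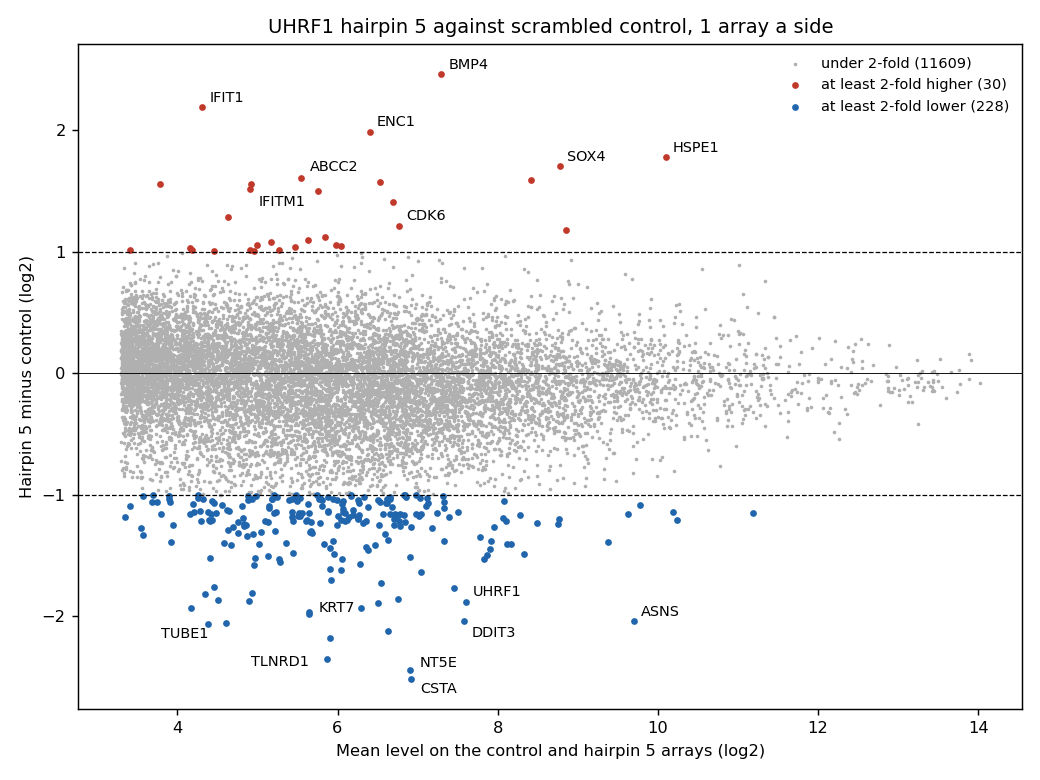
Difference between hairpin 5 and the scrambled control (log2, vertical axis) against the mean level on the 2 arrays (log2, horizontal axis), 1 point for each of 11867 genes. The 228 genes at least 2-fold lower (blue) outnumber the 30 at least 2-fold higher (red), and the dashed lines mark 2-fold.

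Most of the genes past 2-fold were readable on both arrays. The 228 lower genes had a median level of 6.60 on the control array and 5.26 with hairpin 5, and 11 of them were below the level minimum with hairpin 5. The 30 higher genes had medians of 4.85 and 6.08, and 3 of them were under the minimum on the control array: IFIT1 at 3.22, DDIT4L at 3.01 and P3H2 at 2.90. Their folds depend on where the background lies. Values ran without a gap across 2-fold. MCUB, STC2 and TAF1A were just inside it at −1.0, and GCC2 (1.01), ADAMTS14 (1.01) and ALKBH4 (1.0) just inside on the other side, while SAP30L (0.99), SRARP (0.99) and BDH2 (0.97) were just outside.

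Among the higher genes, BMP4 had the largest difference, followed by IFIT1 (2.19, described with the interferon genes) and ENC1. The secreted morphogen BMP4 was at 6.06 on the control array and 8.52 with hairpin 5, 5.50-fold higher. ENC1, a kelch protein known as a Wnt target in colorectal tumours, went from 5.41 to 7.40, a difference of 1.99. ARID5B, a DNA-binding partner of a histone demethylase, was at 4.14 and 5.69, and hairpin 2 left it at 4.20, close to the control. RNF43, the membrane ubiquitin ligase that removes Wnt receptors, was at 5.46 and 6.52. These 4 genes were each read by 1 probe set at the level minimum. The rule also named DDIT4L (1.56), RGCC (1.08), RAB3IL1 (1.03) and P3H2 (1.02), and the antisense transcript ARRDC1-AS1 at 4.95 and 5.99.

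HSPE1, the co-chaperonin of the mitochondrial matrix, was at 9.21 and 10.99, and at 10.88 with hairpin 2. Its partner subunit HSPD1 was at 12.39 and 12.49, a difference of 0.09. ABCC2, an export pump for drug conjugates, was at 4.74 and 6.35, and ND6, a subunit of respiratory complex I encoded by mitochondrial DNA, at 7.62 and 9.21. The glucose transporter SLC2A1 was at 5.29 and 6.41, and the uncoupling protein UCP3 at 3.67 and 4.69. CDK6, which drives entry into S phase with D-type cyclins, was at 6.16 and 7.37 by one probe set and 4.43 and 5.49 by the other. VSNL1, a neuronal calcium sensor, was at 5.99 and 7.39, and at 4.70 and 6.03 by its other probe set. CDK6 and VSNL1 were the 2 higher genes in which every one of 2 or more probe sets at the minimum was past 2-fold. SOX4, a transcription factor outside the naming rule and added after its values were seen, was higher by 1.70, 1.5, 0.72 and 0.48 in its 4 probe sets.

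Among the lower genes, CSTA had the largest difference. This intracellular inhibitor of cathepsins was at 8.17 on the control array and 5.66 with hairpin 5, 5.70-fold lower, and at 6.32 with hairpin 2. TLNRD1, an actin-bundling protein, was at 7.04 and 4.69, while hairpin 2 left it at 6.85. LINC00513, a long noncoding RNA, was at 6.99 and 4.81, and above the control at 7.67 with hairpin 2. TUBE1, the epsilon tubulin of centrioles, was at 5.63 and 3.58. KRT7, a simple-epithelium keratin, was at 6.63 and 4.66 in the 1 of its 4 probe sets at the minimum. Its mean difference over all 4 was −0.48. FOSL1, an AP-1 subunit, was at 7.86 and 6.22. Both CSTA and KRT7 were also lower by more than 1 log2 unit with hairpin 2, and TLNRD1 was not.

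PCK2, the mitochondrial phosphoenolpyruvate carboxykinase, was at 7.68 and 5.82. GPAT3, which starts triglyceride assembly, was at 5.26 and 3.44, and TSC22D3, a glucocorticoid-induced factor, at 5.44 and 3.57. With hairpin 2 GPAT3 stood at 5.37 and TSC22D3 at 5.58, both slightly above the control. KPNA3, an importin alpha, was lower in both of its probe sets, from 7.69 to 5.57 and from 6.02 to 4.26. NT5E, which encodes CD73, the surface enzyme that makes adenosine, was added after its values were seen. Its brightest probe set was at 8.13 and 5.69, a difference of −2.44, and the other probe sets at the minimum differed by −1.81 and −0.67. The remaining genes that the naming rule placed among the 20 lowest were FAM110C (−1.98), ACYP2 (−1.93), SLC16A14 (−1.88), FAM241A (−1.81), PNMA1 (−1.70), LETM2 (−1.61) and PROSER1 (−1.57).

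**Figure D2:**
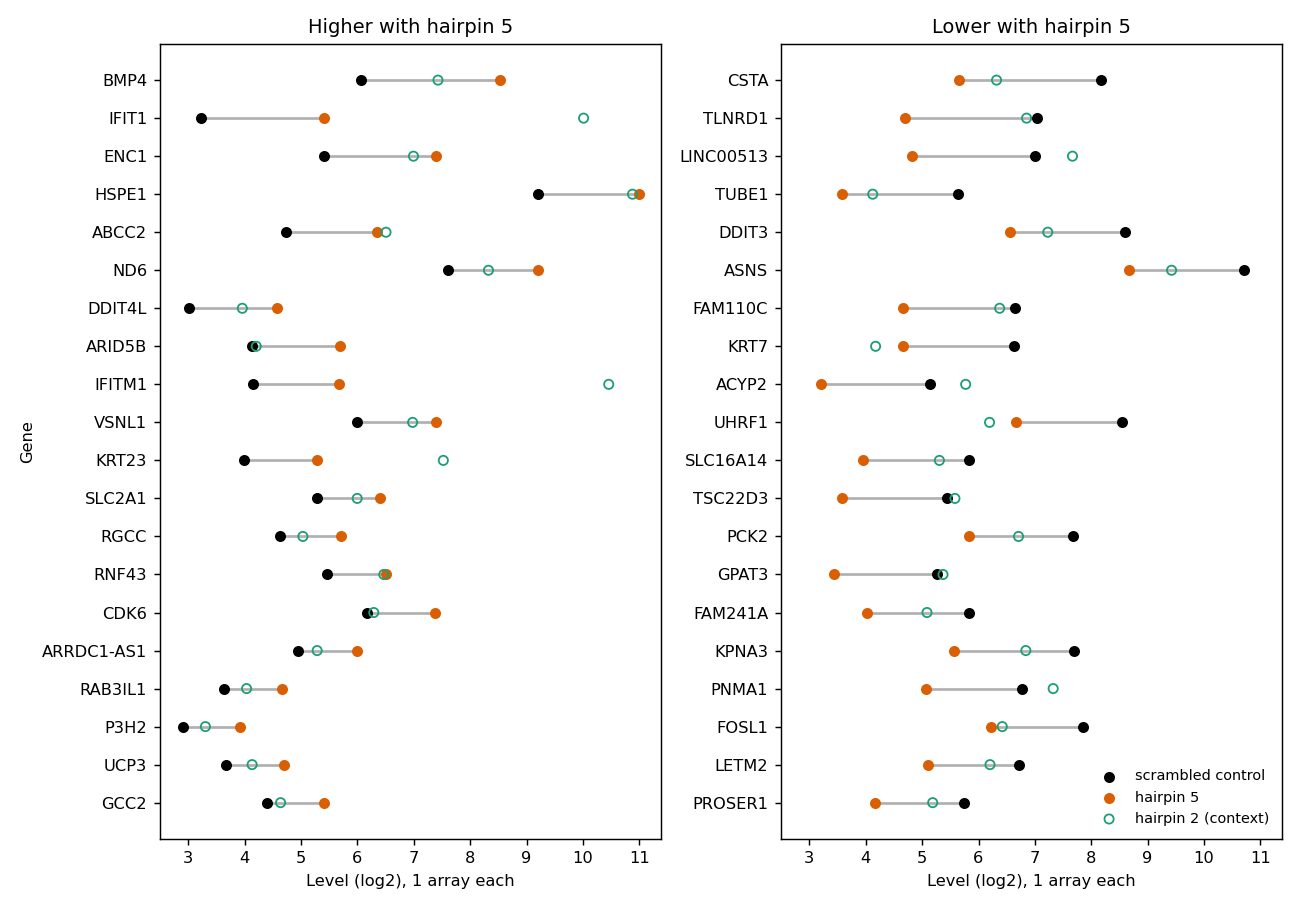
Levels (log2) on the control array (black), the hairpin 5 array (orange) and the hairpin 2 array (open green), 1 array each. The 20 higher and the 20 lower genes are those with the largest difference shared in sign by all their probe sets at the level minimum. Most of them had 1 probe set there. IFIT1 and IFITM1 sit near 10 with hairpin 2 but at 5.41 and 5.66 with hairpin 5, while LINC00513 and ACYP2 lie above the control with hairpin 2 and below it with hairpin 5.

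Genes of the amino acid response were the group with the most members past 2-fold. ATF4 is a transcription factor made when amino acids run short or the endoplasmic reticulum is stressed, and it drives amino acid synthesis, uptake and tRNA charging through a composite site shared with C/EBP proteins. Of 41 listed genes on the array, 36 were at the level minimum, and 11 of them (30.6%) were at least 2-fold lower and 0 at least 2-fold higher, against 1.92% and 0.253% of all genes. The list's median difference was −0.45, with 27 members below 0 and 9 above. With hairpin 2, set against the same control array, the median of the 36 genes was −0.47. Promoters of ASNS and CEBPG are shown because the ATF4 half-site TGATGNAA lies in them. They are the 250 bases before the RefSeq start, assembly GRCh38.p14, written 5′ to 3′ on the gene's strand with the match in capitals. ASNS is at chr7:97872409-97872658 on the minus strand, with the match 68 bases before the start, and CEBPG at chr19:33373863-33374112 on the plus strand, with the match 42 bases before it.
ASNS: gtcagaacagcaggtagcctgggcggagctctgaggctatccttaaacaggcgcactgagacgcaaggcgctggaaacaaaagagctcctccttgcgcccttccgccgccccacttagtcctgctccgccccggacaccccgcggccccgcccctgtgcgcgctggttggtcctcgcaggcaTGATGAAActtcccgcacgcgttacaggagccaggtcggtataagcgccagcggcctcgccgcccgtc
CEBPG: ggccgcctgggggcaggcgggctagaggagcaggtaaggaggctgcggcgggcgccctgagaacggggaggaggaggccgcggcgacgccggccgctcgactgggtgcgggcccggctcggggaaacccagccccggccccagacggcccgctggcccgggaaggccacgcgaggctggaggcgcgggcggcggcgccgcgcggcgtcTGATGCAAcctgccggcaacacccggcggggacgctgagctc

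Searched on both strands, that 8-letter motif was in 7 of the 29 list genes with a promoter entry (24.1%), in 3.14% of all 35116 promoters and in 2.27% of the 9579 genes measured here that had one. It was in 10 of 192 lower genes (5.21%) and 1 of 24 higher genes. Within the list, JDP2 also held it and differed by −1.15, while FGF21 and SLC1A5 held it and stood above the control by 0.41 and 0.50. A match is only a run of letters in this window.

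Among the regulators of the list, DDIT3 (CHOP), a stress-induced C/EBP relative, was at 8.60 on the control array and 6.56 with hairpin 5, 4.11-fold lower. CEBPG, a dimer partner of ATF4, was at 7.25 and 5.33, and its other probe set at 6.72 and 5.76. TRIB3, a pseudokinase that restrains ATF4, was at 8.34 and 6.58 by the brighter probe set and at 3.86 and 3.45 by the dimmer one, which is close to the minimum. ATF4 itself was at 11.01 and 10.69, a difference of −0.32, and ATF3 at 6.24 and 6.15. The regulator furthest the other way was NUPR1, a small stress protein, at 4.29 and 4.88. Thus 3 of the 12 regulators measured were at least 2-fold lower and 0 at least 2-fold higher, against 1.92% and 0.253% of all genes.

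The enzymes and transporters of the list differed in the same direction with exceptions. ASNS, the asparagine synthetase, was at 10.71 and 8.68, and at 9.43 with hairpin 2. In serine synthesis, PHGDH was at 8.59 and 7.32 and PSAT1 at 10.32 and 9.24, whereas PSPH, the last enzyme of that route, was at 7.50 and 7.27. PYCR1, which makes proline, was above the control, at 7.07 and 7.44. The cystine carrier SLC7A11 was at 7.66 and 6.15, and by a second probe set at 5.08 and 3.21. The large neutral amino acid carrier SLC7A5 was at 9.37 and 8.17, and SLC3A2, its heavy chain, at 8.06 and 7.49. The glutamine carrier SLC1A5 was above the control, at 6.06 and 6.56. JDP2, VEGFA and STC2 made up the 11, with differences of −1.15, −1.04 and −1.0. VEGFA rested on its brightest probe set, and the median over its probe sets was 0.05. With hairpin 2, JDP2 stood above the control by 0.35, and STC2 stood below it by nearly the same amount as with hairpin 5 (−0.98).

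**Figure D3:**
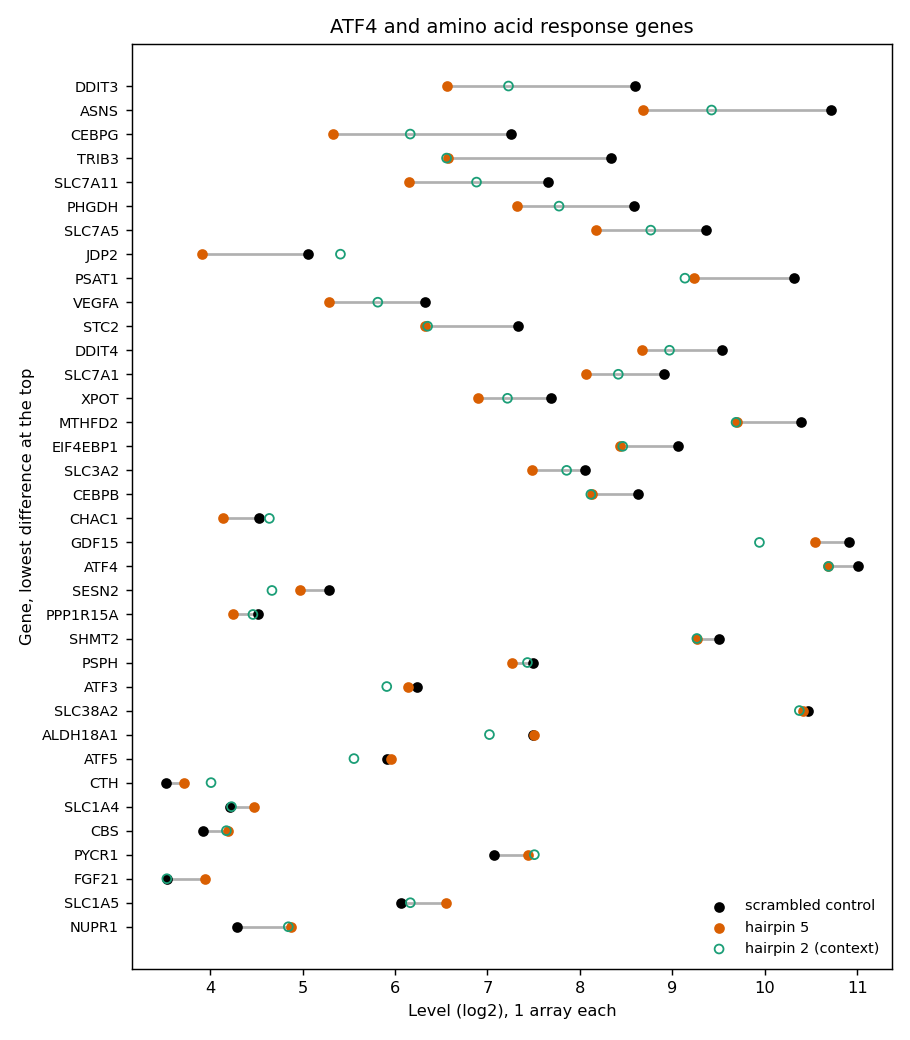
Levels (log2) of the 36 measured genes of the ATF4 and amino acid response list on the control (black), hairpin 5 (orange) and hairpin 2 (open green) arrays, 1 array each, ordered by the hairpin 5 difference. The upper 27 genes are below the control with hairpin 5 and the lower 9 above it, with DDIT3 and ASNS at the top and NUPR1 at the bottom.

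Aminoacyl-tRNA synthetases, which load amino acids onto tRNAs, had a median of −0.24 over 31 genes (−0.11 by the mean over probe sets). Past 2-fold was 1 of the 31, a lower gene (3.23%, against 1.92% of all genes). That gene was CARS1, the cytosolic cysteine enzyme, at 10.76 and 9.62. Of the 17 cytosolic enzymes 14 were below 0, as were 11 of the 14 mitochondrial ones, against 56.5% of all genes. YARS1 differed by −0.86, with −0.01 in its other probe set, and AARS1 by −0.76. SARS2, of mitochondria, lay furthest above at 0.55. Endoplasmic reticulum chaperones and unfolded protein response genes had a median of −0.25 over 32 genes, with 4 at least 2-fold lower (12.5%, against 1.92% of all genes). These were the co-chaperone DNAJB9, at 5.28 and 3.88, the sensor kinase EIF2AK3 (PERK), at 4.90 and 3.69, the degradation factor HERPUD1, at 7.89 and 6.78, and the sensor ATF6, at 6.80 and 5.73, with −0.23 and −0.28 in its other probe sets. HSPA5 (BiP), the main chaperone of the compartment, differed by −0.55, and CALR by 0.30. With hairpin 2, EIF2AK3 and HERPUD1 differed from the control by 0.34 and 0.01, and ATF6 by −1.63.

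Immediate early genes, which respond within minutes to growth factor signalling, and their AP-1 and feedback partners had a median of −0.26 over 34 genes. Below 0 were 25 of them (56.5% of all genes were). At least 2-fold lower were 5 of the 34 (14.7%), and 0 were at least 2-fold higher, against 1.92% and 0.253% of all genes. KLF4, a zinc finger factor of differentiated epithelium, was at 7.41 and 5.68, although its second probe set differed only by −0.29. FOSL1 differed by −1.63. ZFP36L1, which destabilises AU-rich messengers, was at 7.45 and 6.23. EGR1 was at 7.98 and 6.80, and KLF2 at 7.63 and 6.61. With hairpin 2, EGR1 stood above the control at 0.89 and KLF2 at 0.84. The AP-1 subunits JUN and FOS differed by −0.46 and −0.14, and MYC by 0.23.

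The urokinase system, whose genes are AP-1 targets in many tumours, was split. PLAU, the urokinase, was at 8.71 and 7.50, and its other probe set differed by −0.46. PLAUR, its receptor, was lower in 2 probe sets, from 8.59 to 7.06 and from 8.10 to 6.50, but its remaining probe set read 6.25 and 6.33. These were the 2 of 13 genes past 2-fold (15.4% lower, against 1.92% of all genes), and the list median was −0.03. The AP-1 site TGANTCA was in 20 of the 192 lower genes with a promoter entry (10.4%), in 1 of 24 higher genes and in 5.96% of the genes measured. It was in 0 of the 25 immediate early and AP-1 list genes with an entry, among them 4 of the 5 lower ones.

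Interferon-stimulated genes lay within 2-fold of the control with hairpin 5, apart from 3 genes. These genes are induced by type I interferon through STAT and IRF factors, and many encode antiviral effectors. Of 61 on the array 43 were at the minimum, and the median difference was 0.05. At least 2-fold higher were 2 of the 43 (4.65%, against 0.253% of all genes). At least 2-fold lower was 1 (2.33%, against 1.92% of all genes). IFIT1, which binds foreign 5′ ends of RNA, was at 3.22 on the control array and 5.41 with hairpin 5. IFITM1, a membrane protein that blocks viral entry, was at 4.15 and 5.66. ISG20, an exonuclease, was at 5.45 and 4.21. The hairpin 2 array, by contrast, read 10.01 for IFIT1, 10.46 for IFITM1 and 6.24 for ISG20, and the median of the 43 genes was 1.43 there. The promoters of these 3 genes are shown because they share an interferon response element, TTCNNTTTC, while their differences point in opposite directions. The windows are again 250 bases before the RefSeq start in GRCh38.p14, all on the plus strand, and a capital run starting GAAA is the motif read on the other strand. IFIT1 is at chr10:89392373-89392622, IFITM1 at chr11:313790-314039 and ISG20 at chr15:88638766-88639015.
IFIT1: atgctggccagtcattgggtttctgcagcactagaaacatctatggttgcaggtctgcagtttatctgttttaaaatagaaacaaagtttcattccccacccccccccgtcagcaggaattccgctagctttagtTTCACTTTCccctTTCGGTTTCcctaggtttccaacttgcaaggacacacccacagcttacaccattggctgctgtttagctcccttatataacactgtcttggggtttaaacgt
IFITM1: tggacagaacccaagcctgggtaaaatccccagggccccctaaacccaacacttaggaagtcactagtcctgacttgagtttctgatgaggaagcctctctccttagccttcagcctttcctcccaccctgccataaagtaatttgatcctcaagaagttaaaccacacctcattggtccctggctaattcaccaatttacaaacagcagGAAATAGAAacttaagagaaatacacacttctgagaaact
ISG20: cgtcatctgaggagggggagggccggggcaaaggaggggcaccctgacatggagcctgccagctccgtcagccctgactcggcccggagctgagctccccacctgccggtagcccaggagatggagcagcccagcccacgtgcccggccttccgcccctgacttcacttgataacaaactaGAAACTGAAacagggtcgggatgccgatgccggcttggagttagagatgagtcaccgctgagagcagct

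The motif was in 19 of 34 list genes with an entry (55.9%) and in 6.88% of all promoters. Other list members that hold it were under 2-fold with hairpin 5. ISG15, the ubiquitin-like modifier, was at 10.17 and 10.35. IFI27 was at 3.81 and 4.04, and IFI6 at 5.90 and 6.37. BST2 (tetherin) was the largest of these, at 4.81 and 5.45. With hairpin 2 the same 4 genes differed from the control by 2.74, 6.77, 5.73 and 4.50. IFI27, IFI6, IFITM1, IFIT1 and BST2 were the 5 genes with the lowest value of hairpin 5 minus hairpin 2, from −6.54 to −3.86. At the other end were AMOTL2 (1.74), ETF1 (1.5), ARID5B (1.49), TTC5 (1.42) and PDGFRL (1.35). Among these, ARID5B alone was past 2-fold with hairpin 5. MHC class I genes display peptides to T cells and also respond to interferon. With their processing genes, 13 of 13 measured were below the control, against 56.5% of all genes. After cyclic loess 12 were below it, and by the mean over probe sets 11 were below and 2 above. Probe sets of the 6 class I genes may read several of them, since they are close copies. The other 7 are processing genes. The 13 had a median of −0.18 and ranged from −0.71 for HLA-B to −0.09 for PSME1, with 0 past 2-fold.

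Of the lists of genes usually silenced by DNA methylation, neither held a member past 2-fold on the hairpin 5 array. Among all genes, 0.253% were at least 2-fold higher and 1.92% at least 2-fold lower, so 0 in lists of 7 and 23 genes is close to those shares. Of 36 germline and cancer-testis antigens with a probe set, 28 were under the minimum on both arrays, and the 7 at the minimum had a median of 0.07 and 0 past 2-fold. The largest difference among them was in MAGEB2, at 9.04 and 9.47. Of 47 genes whose promoters are commonly methylated in colorectal tumours, 23 were at the minimum, with a median of 0.04 and 0 past 2-fold. ESR1, the estrogen receptor, was furthest above at 4.24 and 5.12, followed by CDKN2B at 3.08 and 3.70, and RUNX3 was furthest below at 5.99 and 5.42, although its other probe sets differed by 0.45 and −0.99. Genes that were below the minimum on both arrays have only a bound, so a small difference from a low level would not be detectable here. Within the DNA methylation machinery, 23 of 31 genes were below 0, the median was −0.21 (−0.11 by the mean over probe sets) and UHRF1 was the 1 gene past 2-fold. The next were GADD45A (−0.93), UHRF2 (−0.92) and EHMT1, a histone H3K9 methyltransferase, at −0.89 in its brightest probe set and 0.42 in the other. KAT5, an acetyltransferase found with UHRF1, lay furthest above at 0.47.

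Epithelial adhesion genes lay mostly below the control. Over 28 genes the median was −0.28 by the brightest probe set and −0.07 by the mean over probe sets. LAMB3, a laminin chain, was at 5.42 and 4.10, and its receptor subunit ITGA6 at 7.82 and 6.55, with −0.31 in the other probe set. These 2 were past 2-fold, both lower (7.14% of the list, against 1.92% of all genes). The partner integrin ITGB4 was at 8.20 and 7.43, but its other probe sets differed by 0.47 and 0.20. The claudins were mixed, with CLDN3 at 0.58 and CLDN7 at −0.44. Keratins, the intermediate filaments of epithelia, lay on both sides of the control. KRT7 and KRT15 differed by −1.96 and −1.41, KRT23 was at 4.0 and 5.28, KRT8 at 10.13 and 10.98, and KRT18 and KRT19 were within 0.22 of the control.

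Tubulins, the subunits of microtubules, were the list of 10 or more genes with the highest median, 0.30 over 15 genes. All 5 alpha and all 6 beta tubulins measured were above the control (43.2% of all genes were), also after median centring and after cyclic loess. Tubulin genes are near copies of one another and share probes, so their probe sets are not independent. Without the probe sets marked as cross-hybridising, 3 of 3 alpha and 3 of 4 beta tubulins were above it. TUBB4B was at 10.57 and 11.46, TUBB3 at 9.29 and 10.06, TUBA1A at 7.50 and 8.17, and TUBB6 at 8.95 and 9.53. None reached 2-fold, and TUBE1, of centrioles, differed by −2.06. Secretory and mucin genes of the intestine were also above the control in 11 of 11 measured (10 of 11 after cyclic loess), with a median of 0.37. Without a level minimum 15 of 21 were above it, with a median of 0.11, and by the mean over probe sets the median was 0.16. MUC13 was at 3.77 and 4.51, and MUC5AC at 3.57 and 4.24, both near the level minimum, and SPDEF, the goblet cell factor, at 6.31 and 6.80. CA2, an absorptive gene, was at 7.55 and 6.77.

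In the BMP pathway the ligand BMP4 stood alone past 2-fold on the higher side, 1 of 26 genes (3.85%, against 0.253% of all genes). Its target genes and antagonists were split, 3 above and 3 below the control, with BAMBI at 4.02 and 4.86, ID3 at 7.81 and 8.49, and ID1 at 11.83 and 11.43. Of 6 SMADs 1 was above it, the inhibitory SMAD6, at 5.08 and 5.76. SMAD1, which carries the BMP signal, was at 6.24 and 5.24. It was the 1 gene of the 26 at least 2-fold lower (3.85%, against 1.92% of all genes). That rests on the 1 of its 3 probe sets at the minimum, and the mean difference over all 3 was −0.40. In the Wnt list RNF43 and ZNRF3, paired ligases that act on the same receptors, were at 1.06 and 0.73, and the list median was −0.11 (0.04 by the mean over probe sets). In the Hippo list the coactivator WWTR1 (TAZ) was at 7.14 and 6.10, with −0.22 and 0.04 in its other probe sets. The kinase LATS2 was at 6.88 and 5.96, with 0.27 and −0.21 in its others. Of the EGFR family, ERBB2 was at 6.15 and 5.51 and EGFR at 6.04 and 5.74, with other EGFR probe sets between −0.81 and 0.57.

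Proliferation genes were past 2-fold at shares near those of all genes. The 54 S phase genes had a median of −0.09 and 1 at least 2-fold lower (1.85%, against 1.92% of all genes), GINS1, of the replicative helicase, at 7.86 and 6.80. The 59 G2 and mitosis genes had a median of −0.14, with the kinesins KIF15, at 5.99 and 4.96, and KIF14, at 6.67 and 5.67, at least 2-fold lower (3.39%). MKI67 was at 8.11 and 8.38. DNA repair and checkpoint genes had a median of −0.21 over 35 genes (−0.06 by the mean over probe sets) and 0 past 2-fold. Of 12 checkpoint genes 11 were below 0, and so were 8 of 8 Fanconi genes, against 56.5% of all genes. By the mean over probe sets it was 8 of 11 and 6 of 8, and 3 Fanconi genes lay above 0 after cyclic loess. The kinase ATR was at 6.72 and 5.82, with 0.17 in its other probe set, and BRCA1 at 7.07 and 6.25, with −0.08 in its other. Among p53 targets the median was 0.10, with CDKN1A at 8.35 and 8.72. The death receptor TNFRSF10A was at 6.28 and 5.06, with −0.79 and −0.19 in its other probe sets.

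Housekeeping groups were near the median of all genes, and medians this close to 0 can change side with the scaling. The 50 cytosolic ribosomal protein genes had a median of −0.10 and the 75 mitochondrial ones −0.08, with 0 past 2-fold in either. The 46 respiratory chain genes had a median of −0.08 and the 32 proteasome genes −0.12. PSMB7 of the proteasome core, at 10.84 and 9.63, was the 1 of the 32 at least 2-fold lower (3.1%, against 1.92% of all genes). Below 0 were 44 of the 50 cytosolic and 48 of the 75 mitochondrial ribosomal protein genes. So were 34 of the 46 respiratory chain genes and 25 of the 32 proteasome genes, against 56.5% of all genes. Cholesterol and fatty acid synthesis genes had a median of −0.01 over 28 genes. In the NRF2 and metallothionein list, 6 of 6 metallothioneins were below 0 (56.5% of all genes were), from −0.48 to −0.15. All 6 were read at the minimum by probe sets marked as cross-hybridising alone, so they are not independent. GCLC, of glutathione synthesis, was at 7.43 and 6.50. HMOX1 was at 4.83 and 5.49. Polycomb and trithorax genes had a median of −0.01, with JARID2 at 7.34 and 6.17 (−0.006 in its other probe set) and RYBP at 6.80 and 7.73. Another probe set of RYBP read 5.80 and 5.46. The chromatin remodelling ATPases were equally balanced, with SMARCA1 at 4.76 and 5.77 and SHPRH at 4.40 and 3.39.

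**Figure D4:**
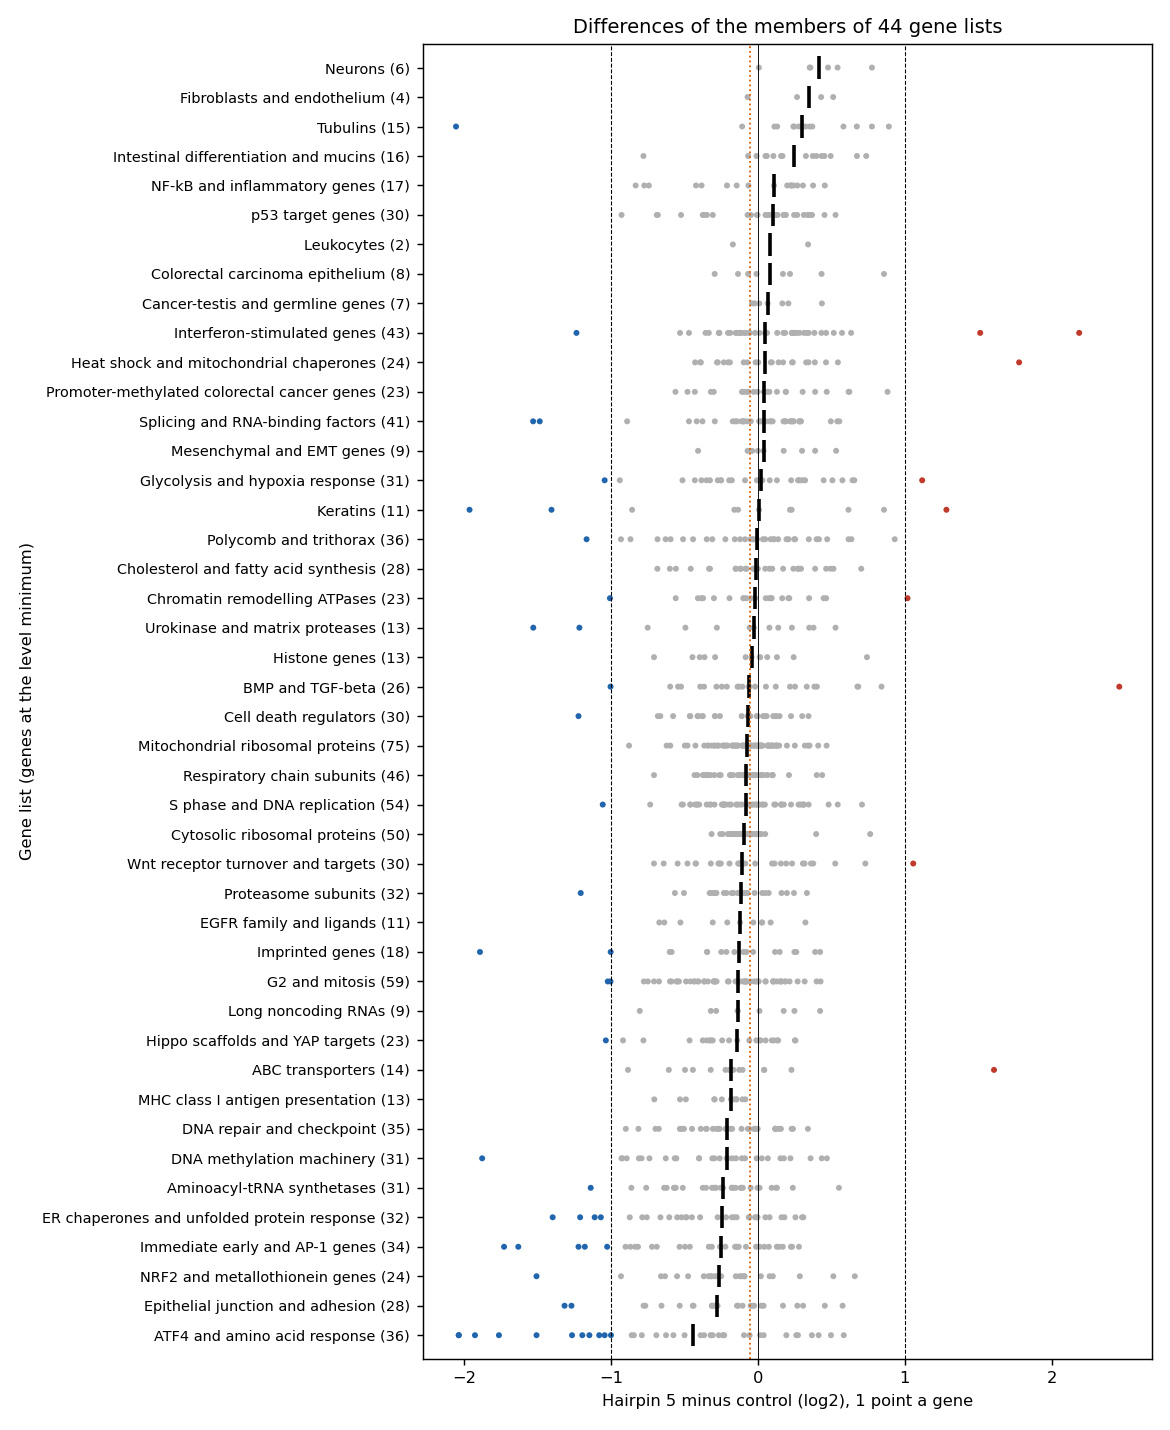
Differences (hairpin 5 minus control, log2) of the measured members of 44 gene lists, 1 point a gene, with the list median as a black bar, the median of all genes (−0.05) as a dotted line and 2-fold as dashed lines. The ATF4 list at the bottom has 11 blue points past 2-fold lower, and the tubulins near the top have a median of 0.30 with TUBE1 far to the left.

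Probe sets of 1 gene often disagreed in sign. Of 4798 genes with 2 or more probe sets at the level minimum, 2478 had all of them on one side of 0, which is 51.6% (Wilson 95% interval from 50.2 to 53.1, counting error only). Among the lower genes 101 had 2 or more, and 79 of them agreed in sign (78.2%). In 38 of the 101 all probe sets were past 1.5-fold, and in 15 all were past 2-fold. Among the higher genes 10 had 2 or more, 8 agreed in sign and 2 were past 2-fold in all. Since the brightest probe set chose these genes, the shares are a description of the 258 genes and not support for them.

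The second-brightest probe set, which took no part in calling a gene, usually had the same sign and a smaller difference. The sign was the same in 85.1% of the lower genes and 80.0% of the higher ones, against 61.3% of all 4798. A second probe set reads the same RNA on the same array, so it is not a replicate. For the 101 lower genes its median difference was −0.54, against −1.19 for the brightest, and it was past 2-fold in 20. For the 10 higher genes it was 0.69, against 1.20. By their choice, second probe sets were dimmer, with a median level of 4.71 against 6.36 over all 4798 genes. The 15 lower genes with every probe set at the level minimum past 2-fold were KPNA3, SLC7A11, EMP1, SERTAD2, PRSS3, CST6, CLIC4, UBE2J1, CTBS, ARHGAP19, ARTN, CD58, SRD5A1, RNF138 and STC2. Probe sets under the minimum are left out of that count. With them, the mean difference was −1.12 over 3 probe sets of SLC7A11, −0.73 over 6 of EMP1 and −0.85 over 5 of CD58. CD58, an adhesion ligand of T cells, was read by 3 probe sets at the minimum. They were at 7.38 and 6.17, at 6.55 and 4.91, and at 6.33 and 4.94, while hairpin 2 left the first at 7.50. CST6, a secreted cystatin, was at 10.08 and 8.69, and EMP1, an epithelial membrane protein, at 8.61 and 7.11.

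**Figure D5:**
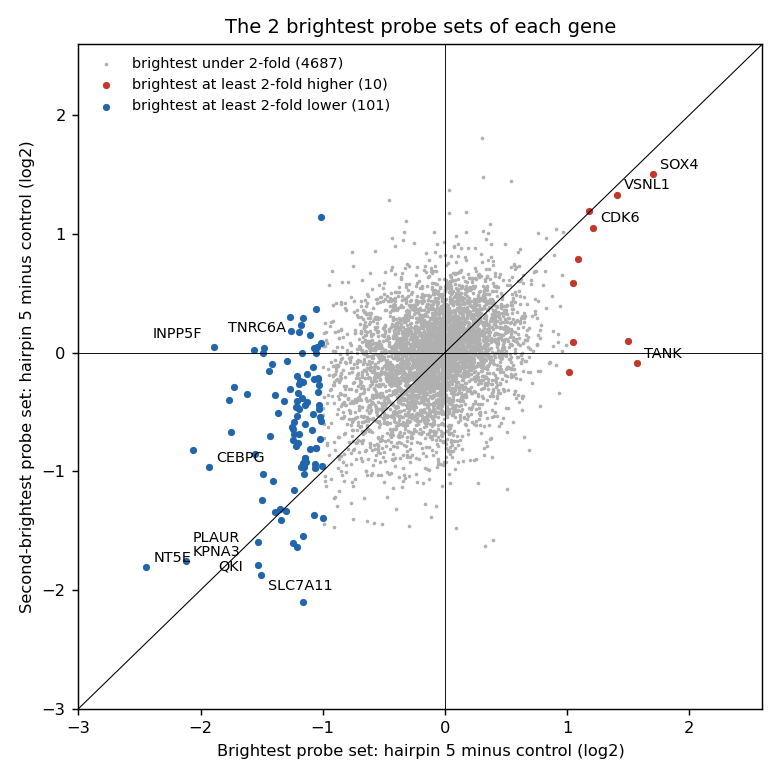
Difference (hairpin 5 minus control, log2) of the second-brightest probe set against that of the brightest, for 4798 genes with both at the level minimum, with the diagonal as the line of equal values. KPNA3 and SLC7A11 lie far down on both axes, while INPP5F, TNRC6A and TANK are past 2-fold on the horizontal axis and near 0 on the vertical.

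In 22 of the 101 lower genes the probe sets had mixed signs. INPP5F, an inositol phosphatase, was at 7.45 and 5.56 by one probe set and 3.38 and 3.43 by the other. TNRC6A, which carries out silencing with Argonaute proteins, differed by −1.57 in 1 probe set and by 0.02 to 0.08 in its 4 others, so that the median over its probe sets was 0.02. TAF15, an RNA-binding protein, was at 6.70 and 5.22, and its other probe set was at 4.74 on both arrays. TMX4 was at 6.19 and 4.71, with 0.04 in the other. In the higher genes, TANK, an adaptor of NF-kB and interferon signalling, was at 5.75 and 7.32 by one probe set and 5.59 and 5.51 by the other. SMARCA1, an ISWI remodeller, differed by 1.02 and −0.16. Which probe sets read the same transcripts was not tested.

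In RefSeq order, 9 of 11833 adjacent pairs of measured genes were both past 2-fold, and in all 9 both were lower. How many such pairs genes placed without regard to position would give was not tested. The pairs were UHRF1 with KDM4B, a histone demethylase, TRIB3 with RBCK1, FOSL1 with C11orf68, KRT7 with LINC00592, NT5E with CYB5R4, LBR with DNAH14, NHLRC2 with CCDC186, INTS14 with SLC24A1, and CDCP1 with TMEM158. KDM4B was at 6.60 and 5.54 in its brightest probe set and within 0.19 of the control in its 3 others at the minimum, and CDCP1 differed by −1.19 in its brightest and 0.17 in its other.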

How the data were processed

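RNA of 3 HCT116 cultures was labelled with biotin and hybridised to 1 Affymetrix array each. The deposited values are log2 expression levels. Per the submitters' processing notes, the tools were RMA and Affymetrix Expression Console, with versions not given in the sources used here. The range of the control array, 1.95 to 14.06, was taken to mean base 2. How values were centred is unknown. Detection calls were not used here, and folds at low levels may be understated. Array control probe sets were not analysed here, so 5′ to 3′ ratios and spike-in signals are not given.

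Probe sets were named through the platform annotation; 1801 named several genes and 11721 none, and neither group entered the comparison. Entrez identifiers matched 41037 of the 41091 named probe sets to RefSeq genes (GRCh38.p14), which changed 0 symbols; its gene order gave the neighbours. A gene took the value of the probe set that was brightest on average on the control and hairpin 5 arrays, and was kept at or above the 40th percentile of those means. A gene past 2-fold differed by at least 1 on the log2 scale. No test was possible with 1 array a side.

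Named genes were UHRF1, UHRF2 and the DNMT genes, the 20 higher and 20 lower genes past 2-fold with the largest difference shared in sign by all their probe sets at the minimum, up to 5 in each direction with mixed signs, for each list the 4 members furthest in the direction of its median and 1 against, and 5 at each end of hairpin 5 minus hairpin 2; the text gives a selection of them, and any other gene was added after its values were seen. The members and the 44 lists were chosen with earlier results of these data known. Motifs were searched in the 250 bases upstream in the RefSeq promoter table, which held 9579 of the 11867 genes. Counts were computed in Python 3.11.15 with pandas 2.3.3 and numpy 2.4.6, and cyclic loess in limma 3.58.1 (R 4.3.3). The counting code was tested on simulated data. Alternatives for the probe set of a gene, the scaling, the level minimum and the fold are in the closing section.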

Additional observations from a re-analysis of the deposited data

Results flagged for a closer look

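The genes below were at least 2-fold lower with hairpin 5 and lay above the control with hairpin 2, by 0.51 (log2) at the least. Of all 228 lower genes, 49 were at or above the control with hairpin 2. Each hairpin is 1 array against the same control, and the difference between the hairpins was not tested. ANXA10, an annexin of gastric epithelium, read 5.74 in the control, 4.52 under hairpin 5 and 7.47 under hairpin 2, so that hairpin 5 minus hairpin 2 was −2.95. The noncoding RNA LINC00513 gave −2.85, the acylphosphatase ACYP2 −2.57 and PNMA1 −2.25. Of the growth factor response genes, EGR1 gave −2.07 and KLF2 −1.87. ISG20, the interferon-induced exonuclease, gave −2.02. The noncoding RNAs LINC00992, LNCAROD and GSEC gave −1.83, −1.82 and −1.70. With hairpin 5, LINC00992 (3.22), LNCAROD (2.86) and ACYP2 (3.205) were under the level minimum. The other probe set of GSEC was above the control by 0.37 with hairpin 5. ZFYVE21, an endosomal protein, gave −1.71, and COPG2, a coat subunit of transport vesicles, −1.58.

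Probe sets outside the comparison also held values past 2-fold. Of 2274 unnamed probe sets at the level minimum, 8 were at least 2-fold higher with hairpin 5 and 20 at least 2-fold lower, the furthest at 1.42 and −2.02. Of 989 probe sets that name several genes, 3 were higher and 11 lower, the furthest at 1.13 and −1.90.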

How the results depend on the processing

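The excess of lower over higher genes held under every alternative run, but the counts moved. Averaging the probe sets of each gene gave 16 higher and 102 lower genes, of which 16 and 98 were among the 30 and 228. At 1.5-fold the counts were 340 and 1152, and at 3-fold 7 and 27. Over all named probe sets, with no level minimum, 63 were higher and 341 lower. Requiring 2 or more probe sets at the level minimum, all past 2-fold, left 2 and 15 genes. The other alternatives stayed within 1.5 times, among them median centring (22 and 268), cyclic loess (36 and 190) and a minimum at the 60th percentile (23 and 182). The share of genes whose probe sets agreed in sign was 38.53% when dim probe sets were included. UHRF1 kept its side and stayed past 2-fold after median centring and cyclic loess. The fibroblast and endothelial median, 0.35 over 4 genes, was −0.071 at the 60th percentile, where the leukocyte list had no gene left. TNRC6A and VEGFA changed sign with the median over probe sets, to 0.022 and 0.051, while 1818 of the other values of named genes stayed close and 109 moved by more than the spread of all differences (0.35). Of the 22 lists with a median of 0.1 or more in size, the mean over probe sets brought 11 nearer to 0 by more than 1.5 times and turned 2 (imprinted and Wnt genes), and the median over probe sets turned 2 (long noncoding RNAs and NF-kB genes). The NF-kB median also turned with the brightest probe set over 3 arrays, without a minimum and at the 60th percentile. Cyclic loess turned 9 list medians, 0 of them of that size. The cause of each change was not tested. No paired analysis was possible because each group is 1 array, and for the same reason no replicate could be left out. Signal close to background limits genes below a log2 level of about 3.30.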

Other observations

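Some gene groups not described above differed little as groups but held single genes with larger differences. Cytosolic heat shock genes, which refold proteins, lay above the control in 10 of 12, with STIP1 at 8.14 on the control array and 8.69 with hairpin 5 and HSP90AB1 at 11.22 and 11.68, although another probe set of HSP90AB1 read 7.0 and 6.61. Mitochondrial chaperones other than HSPE1 lay mostly below it, with HSPA9 at 10.15 and 9.76 and LONP1 at 8.24 and 7.85. SR and hnRNP splicing factors had 15 of 21 members above the control, with SRSF5 at 9.17 and 9.72. QKI, an RNA-binding protein, was at 6.82 and 5.29 and at 5.71 and 3.92 in 2 probe sets, and at 3.94 and 3.80 in another. In glycolysis, PGAM1 was at 10.73 and 11.39 and ALDOC at 6.73 and 7.37, while PDK1, a hypoxia target, was at 4.38 and 3.44.

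NF-kB and inflammatory genes had a median of 0.11 over 17 genes, which was −0.07 with the brightest probe set over 3 arrays or at the 60th percentile, −0.04 without a minimum and −0.03 by the median over probe sets, with IL18 at 7.24 and 6.41 and ICAM1 at 4.11 and 4.56. Imprinted genes had a median of −0.13 over 18 genes by the brightest probe set and 0.00 by the mean over probe sets. At least 2-fold lower were 2 of the 18 (11.1%, against 1.92% of all genes), INPP5F, whose probe sets disagreed, and BLCAP, a small membrane protein, at 5.98 and 4.98. PHLDA2 was at 11.27 and 10.67, with 0.16 and 0.03 in its other probe sets, and MEG3 at 4.90 and 5.32. Of 13 histone genes, H3-3A was at 6.27 and 7.02 and CENPA, the centromeric variant, at 7.90 and 7.19. ABC transporters other than ABCC2 were all under 2-fold, with ABCB10 at 4.94 and 4.06. Among 9 mesenchymal genes, S100A4 was at 10.33 and 10.86, VIM at 3.79 and 4.18, and TWIST1 at 4.12 and 3.71, and 9 long noncoding RNAs lay between −0.81 and 0.42, with a median of −0.14 that was 0.06 by the median over probe sets.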
